A study of Mus musculus with 17 samples.

Results

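The genes described are members of the plasminogen activator system and its serpins: Plat, Plau, Plaur, Serpine2, Serpina5 and Serpinf1. They were measured in mouse ovary by 9 probes of the Illumina MouseWG-6 v2.0 array, each chosen because its symbol in the array annotation is one of these names. The annotation holds 19057 genes under a single symbol. Of the 6 genes, 5 had a probe, and Serpine2, which encodes protease nexin-1, an inhibitor of plasminogen activators, was not analysed here. A probe was kept when its detection p was under 0.05 on at least 4 of 16 arrays, a rule met by 8 of the 9 member probes and by 23098 of all 45281 probes. The third Plat probe, ILMN_1232110, was not above background on any of the 16 arrays.

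The 17 arrays came from females of a FVB/N x C57/BL6 cross aged 12 weeks and covered 4 genotypes. These were Fshr-CAM (4 arrays), a mutant of the follicle-stimulating hormone receptor, Lhr-null (4 arrays), which lacks the luteinizing hormone receptor, Fshr-CAM/Lhr-null (5 arrays), which carries both changes, and wild type (4 arrays). What CAM stands for, how the Fshr change was introduced and which cells carry it are not given in the sources used here, nor is it stated that replicates are separate animals. P-values therefore measure only the spread between these arrays, which may be technical.

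Plasminogen activators cut plasminogen to plasmin, a protease that degrades fibrin and matrix. Plat encodes the tissue-type activator, Plau the urokinase-type activator, and Plaur the receptor that holds urokinase at the cell surface. Serpins are protease inhibitors that trap their target. Serpina5, also called protein C inhibitor, inhibits both activators among other proteases, whereas Serpinf1 encodes pigment epithelium-derived factor, which has the serpin fold without inhibiting proteases and is known to restrain vessel growth. In the rodent ovary the activators are known to respond to gonadotropins around ovulation.

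The promoters of Plaur and Serpina5 are shown because both genes changed in the tests below. RefSeq's promoter table (GRCm38.p6) held 4 of the 6 genes, which are Plaur, Serpina5, Serpine2 and Serpinf1. In the 250 bases before the start, 12 motifs were searched on both strands. They stood for the cAMP response element (TGACGTCA, and its part TGACG), for nuclear receptor sites (AAGGTCA, and its part AGGTCA) and for AP-1 (TGANTCA) and C/EBP (TTGCGCAA). GATA factor sites were searched as AGATAA or with the variant TGATAA. For core promoter boxes, TATAAA was searched as the TATA box, GGGCGG was searched as the GC box, and the CCAAT box by its own letters. The E-box was searched as CACGTG. Capitals mark TGACTCA in Plaur, a match to TGANTCA beginning 69 bases before the start, and TTGCGCAA in Serpina5, beginning 242 bases before it. TGANTCA occurred in 6.75% and TTGCGCAA in 0.164% of 32851 promoters of this length. The Plaur window also held GGGCGG at 3 places, a motif found in 32.7% of promoters. These matches are letters in a window and were not tested as sites.
Plaur, chr7:24462233-24462482, plus strand: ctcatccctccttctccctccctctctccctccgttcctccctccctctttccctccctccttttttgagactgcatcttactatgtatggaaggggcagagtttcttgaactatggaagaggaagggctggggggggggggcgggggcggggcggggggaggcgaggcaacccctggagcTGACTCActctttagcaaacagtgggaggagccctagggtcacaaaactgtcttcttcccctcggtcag
Serpina5, chr12:104100863-104101112, plus strand: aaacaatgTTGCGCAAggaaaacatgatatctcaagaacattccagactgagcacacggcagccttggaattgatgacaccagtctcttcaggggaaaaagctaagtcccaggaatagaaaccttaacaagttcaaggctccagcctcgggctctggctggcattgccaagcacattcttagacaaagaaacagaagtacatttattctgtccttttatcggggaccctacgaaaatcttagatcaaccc

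Before the results, 3 facts about the arrays bear on them. The array labelled Lhr-null replicate 1 had a mean log2 signal of 13.73 over 7 pituitary genes, all detected there, against 4.36 to 4.58 on the other 16 arrays, and it is left out of the values below unless named. Lhr-null replicate 2 had a mean of 9.92 over 6 sperm and testis genes, against 4.57 to 6.37 on the others of the 16. The brightest of 3 kept Fshr probes, ILMN_1228881, averaged 11.52 ± 0.32 in Fshr-CAM, 9.60 ± 0.41 in Lhr-null, 11.16 ± 0.81 in Fshr-CAM/Lhr-null and 8.79 ± 0.36 in wild type ovaries (SD, n = 4, 3, 5 and 4). In Fshr-CAM ovaries it rose by 2.73 ± 0.34 (SE) against wild type (limma adjusted p = 0.00413), but the library labelled Fshr-CAM/Lhr-null replicate 4 stood at 9.73, inside the Lhr-null range of 9.14 to 9.92. The Fshr probes did not move alike: ILMN_2736929 also rose in Fshr-CAM ovaries (2.09 ± 0.35, limma adjusted p = 0.0213), whereas ILMN_2932141 differed there by 0.11 ± 0.23 (limma adjusted p = 1) and rose in Lhr-null ovaries (0.93 ± 0.24, limma adjusted p = 0.025). The annotation lists no Lhcgr probe, and the Lhr transcript was not analysed here.

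All member values are log2 signals after background correction and quantile normalisation over the 16 arrays, and a difference of 1 is a 2-fold difference in signal. The signals of different probes are not comparable. Changes were tested with limma over all 23098 kept probes, with Benjamini-Hochberg adjustment and a threshold of 0.05. The changes past the threshold were 2 member probes in Lhr-null ovaries against wild type, Plaur lower and Serpina5 higher, and 2 in Fshr-CAM/Lhr-null ovaries against wild type, Plau lower and Serpina5 higher. No member probe passed in Fshr-CAM ovaries against wild type, between the double mutant and either single mutant, or for the interaction.

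**Figure D1:**
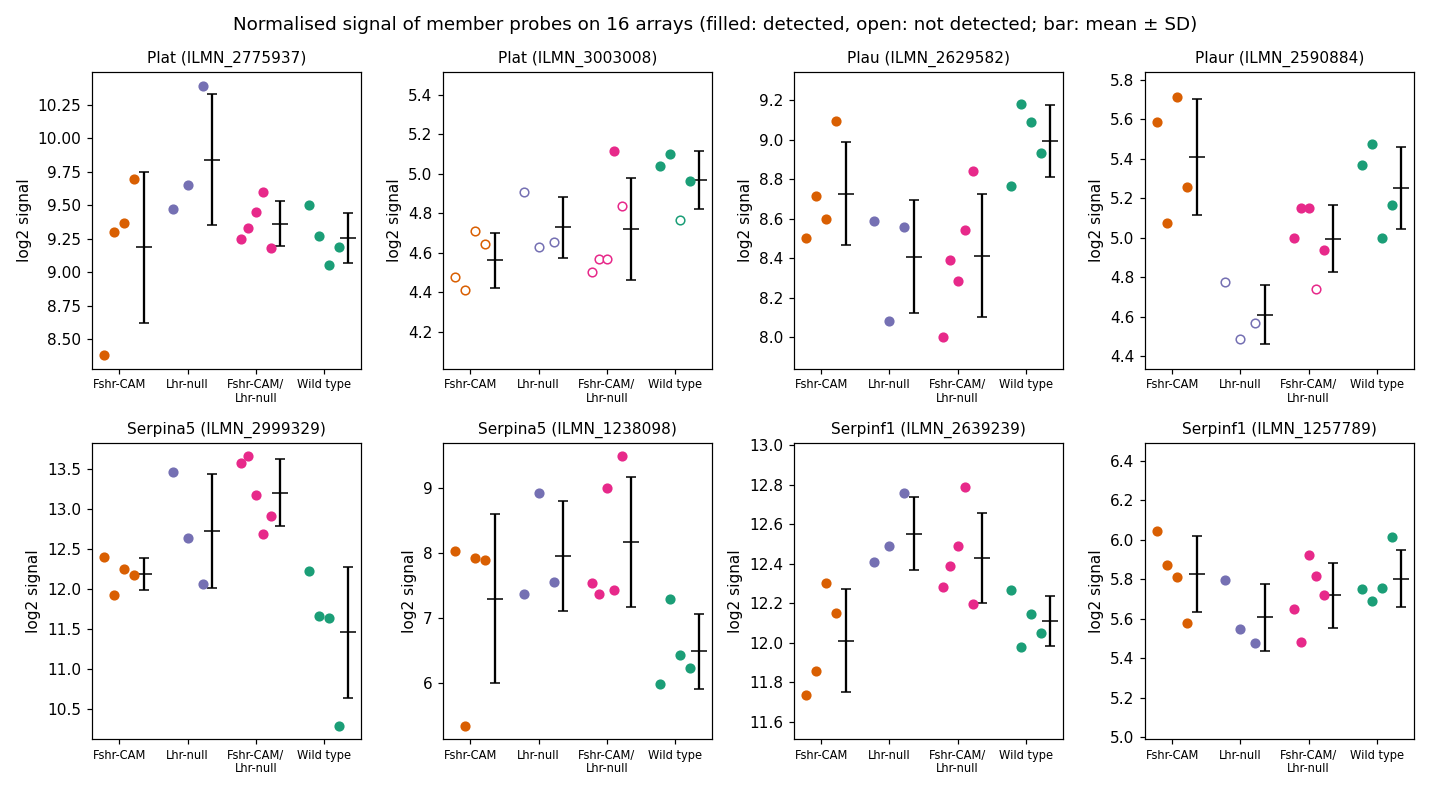
Each panel is 1 kept member probe, with its normalised log2 signal on the y axis and the 4 genotypes on the x axis. Points are the 16 arrays, filled where the probe was detected and open where it was not, and bars are means ± SD. Plaur was not detected on any of the 3 Lhr-null arrays, and Serpina5 ILMN_2999329 lay above the wild type range on all 5 Fshr-CAM/Lhr-null arrays.

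Of the activators, Plat was measured well by ILMN_2775937. It had log2 signals of 8.38, 9.30, 9.37 and 9.70 in Fshr-CAM, 9.47, 9.65 and 10.39 in Lhr-null, 9.25, 9.33, 9.45, 9.60 and 9.18 in Fshr-CAM/Lhr-null, and 9.50, 9.27, 9.05 and 9.19 in wild type ovaries. The lowest array was Fshr-CAM replicate 1 and the highest Lhr-null replicate 4, and the Lhr-null and wild type ranges overlapped. The means ran from Lhr-null (9.84 ± 0.49, SD, n = 3) through Fshr-CAM/Lhr-null (9.36 ± 0.17, n = 5) and wild type (9.25 ± 0.19, n = 4) to Fshr-CAM (9.19 ± 0.56, n = 4). Each neighbouring pair in that order overlapped. The difference of Lhr-null from wild type was 0.59 ± 0.26 (SE) and did not pass (limma adjusted p = 0.165). It was 0.31 without Lhr-null replicate 4 (limma adjusted p = 0.553).

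The second Plat probe, ILMN_3003008, lay near background. It was detected on 0 of 4 Fshr-CAM, 0 of 3 Lhr-null, 1 of 5 Fshr-CAM/Lhr-null and 3 of 4 wild type arrays. Its signals were 4.41 to 4.71 in Fshr-CAM and 4.77 to 5.10 in wild type ovaries, ranges that did not overlap. Without its wild type detections the probe would not have met the rule of at least 4 arrays. This separation was therefore partly set by that rule. The difference of −0.41 ± 0.14 (SE) did not pass over all probes (limma adjusted p = 0.633). The 2 detected Plat probes thus gave no tested change, and their order over the genotypes was not the same.

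Plau, the urokinase-type activator, was measured by ILMN_2629582. It had log2 signals of 8.50, 8.71, 8.60 and 9.10 in Fshr-CAM, 8.59, 8.08 and 8.56 in Lhr-null, 8.00, 8.39, 8.28, 8.54 and 8.84 in Fshr-CAM/Lhr-null, and 8.77, 9.18, 9.09 and 8.93 in wild type ovaries. All Lhr-null arrays lay below all wild type arrays, and 4 of the 5 Fshr-CAM/Lhr-null arrays did so, with replicate 5 inside the wild type range. Plau averaged 8.41 ± 0.31 in Fshr-CAM/Lhr-null and 8.99 ± 0.18 in wild type ovaries (SD, n = 5 and 4). It fell by 0.58 ± 0.17 (SE) on the log2 scale in Fshr-CAM/Lhr-null ovaries (limma adjusted p = 0.0484), which is 1.49-fold lower.

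The Plau difference in Lhr-null ovaries was almost equal in size, at −0.58 ± 0.19 (SE), with a 95% interval of −0.99 to −0.17. It did not pass (limma adjusted p = 0.0699). Between Fshr-CAM/Lhr-null and Lhr-null ovaries, the difference was 0.00 ± 0.19, with a 95% interval of −0.39 to 0.40. Fshr-CAM ovaries stood at 8.73 ± 0.26 (SD, n = 4), a difference from wild type of −0.26 that did not pass (limma adjusted p = 1). The called Plau change sat at the threshold. It stayed past it without wild type replicate 1, Fshr-CAM replicates 1 and 4, Fshr-CAM/Lhr-null replicate 5 or Lhr-null replicate 3, each left out in turn, and missed it without any other single array (limma adjusted p = 0.0508 to 0.146).

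Plaur, the urokinase receptor, was dim on every array. ILMN_2590884 had log2 signals of 5.59, 5.08, 5.72 and 5.26 in Fshr-CAM, 4.78, 4.49 and 4.57 in Lhr-null, 5.00, 5.15, 5.15, 4.74 and 4.94 in Fshr-CAM/Lhr-null, and 5.37, 5.47, 5.00 and 5.17 in wild type ovaries. It was above background on all 4 Fshr-CAM, on 0 of 3 Lhr-null, on 4 of 5 Fshr-CAM/Lhr-null and on all 4 wild type arrays. The Lhr-null and wild type arrays did not overlap. Plaur averaged 4.61 ± 0.15 in Lhr-null and 5.25 ± 0.21 in wild type ovaries (SD, n = 3 and 4), and the difference of −0.64 ± 0.17 (SE) passed (limma adjusted p = 0.0264). Because the probe was not well above background in Lhr-null ovaries, the change is a bound, at least 1.28-fold lower. This bound sets the wild type mean against each dim array's own signal or the lowest detected signal of that array, whichever is higher.

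The Plaur call missed the threshold without Lhr-null replicate 3 or 4 (limma adjusted p = 0.0891 and 0.0861) and without wild type replicate 1 or 2 (limma adjusted p = 0.0608 and 0.0817). In Fshr-CAM/Lhr-null ovaries Plaur averaged 5.00 ± 0.17 (SD, n = 5), between the single mutants. It differed from Lhr-null by 0.38 ± 0.16 (SE, limma adjusted p = 0.343) and from Fshr-CAM by −0.41 ± 0.15 (limma adjusted p = 0.189), and neither passed. Fshr-CAM had the highest mean, 5.41 ± 0.29 (SD, n = 4), and its difference from wild type did not pass (0.16 ± 0.16, SE, limma adjusted p = 1).

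Serpina5, the inhibitor of both activators, was the most variable member. ILMN_2999329 had log2 signals of 12.40, 11.92, 12.25 and 12.17 in Fshr-CAM, 13.47, 12.64 and 12.06 in Lhr-null, 13.58, 13.66, 13.17, 12.69 and 12.91 in Fshr-CAM/Lhr-null, and 12.23, 11.67, 11.64 and 10.29 in wild type ovaries. Every Fshr-CAM/Lhr-null array lay above every Fshr-CAM and every wild type array, while Lhr-null overlapped all 3 other genotypes. The means ran from 13.20 ± 0.42 in Fshr-CAM/Lhr-null (SD, n = 5) through 12.72 ± 0.71 in Lhr-null (n = 3) and 12.19 ± 0.20 in Fshr-CAM (n = 4) to 11.46 ± 0.82 in wild type ovaries (n = 4). Neighbours in this order overlapped.

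Serpina5 rose by 1.75 ± 0.34 (SE) on the log2 scale in Fshr-CAM/Lhr-null against wild type ovaries, which is 3.35-fold higher (limma adjusted p = 0.00505, 95% interval 1.03 to 2.46). This call was kept when any 1 of the 16 arrays was left out (limma adjusted p at most 0.0156). In Lhr-null ovaries it rose by 1.27 ± 0.38, or 2.41-fold (limma adjusted p = 0.0485), with overlapping ranges. That call was kept only without wild type replicate 1, Lhr-null replicate 4 or Fshr-CAM/Lhr-null replicate 4. It missed the threshold without any 1 of the other 13 arrays (limma adjusted p = 0.05 to 0.197), and the change was 0.89 without Lhr-null replicate 2.

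Between Fshr-CAM/Lhr-null and Fshr-CAM ovaries the Serpina5 difference was 1.02 ± 0.34 (SE) with no overlap, and it did not pass over all probes (limma adjusted p = 0.156). Against Lhr-null it was 0.48 ± 0.37 (limma adjusted p = 0.635). Fshr-CAM ovaries stood 0.73 ± 0.35 above wild type (limma adjusted p = 0.93). The interaction is the change between Fshr-CAM/Lhr-null and Lhr-null minus the change between Fshr-CAM and wild type. It was −0.25, with a 95% interval of −1.33 to 0.83 (limma adjusted p = 0.968). The interval reaches beyond −1, so it does not show that the effects add up.

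The other Serpina5 probe, ILMN_1238098, followed the same order of means but not the same arrays. It had log2 signals of 8.04, 5.35, 7.92 and 7.90 in Fshr-CAM, 7.38, 8.92 and 7.55 in Lhr-null, 7.55, 7.38, 9.00, 7.43 and 9.49 in Fshr-CAM/Lhr-null, and 5.99, 7.30, 6.44 and 6.23 in wild type ovaries. Both Lhr-deficient genotypes lay wholly above wild type. The differences were 1.68 ± 0.58 (SE) in Fshr-CAM/Lhr-null ovaries (limma adjusted p = 0.092) and 1.46 ± 0.66 in Lhr-null ovaries (limma adjusted p = 0.179), and neither passed. The arrays that were highest by 1 probe were not those highest by the other: Fshr-CAM/Lhr-null replicates 1 and 2 led on ILMN_2999329, and replicates 5 and 3 led on ILMN_1238098. Within Lhr-null, replicate 2 was highest on the first probe and lowest on the second.

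**Figure D2:**
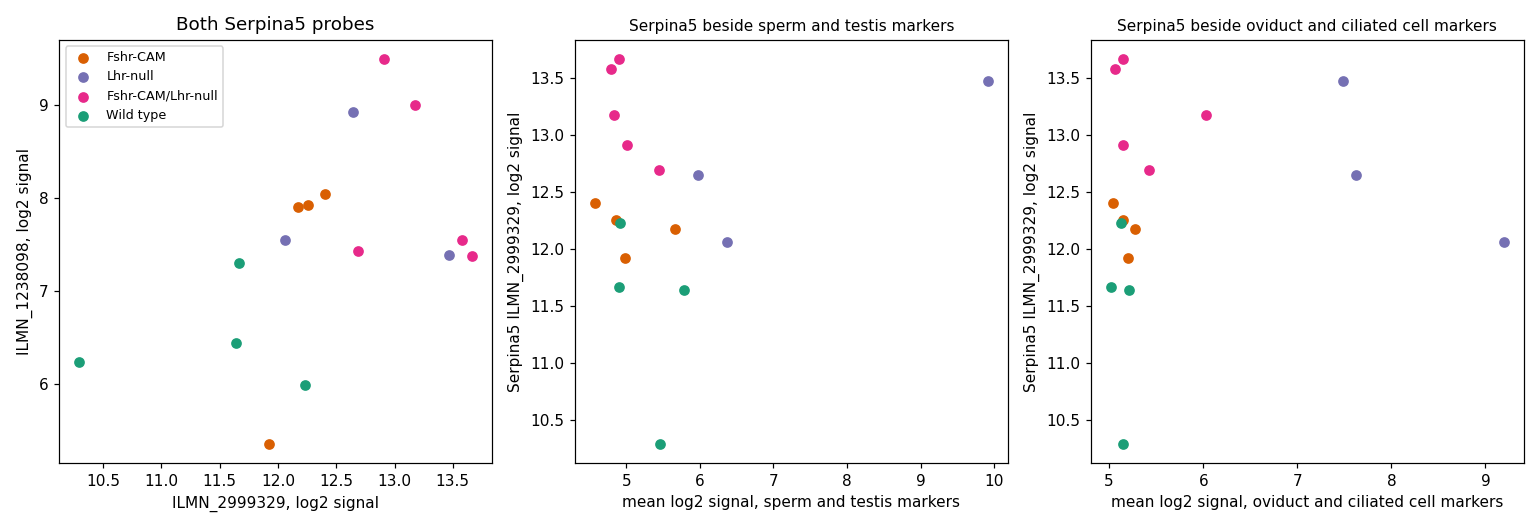
The left panel sets the log2 signals of both Serpina5 probes against each other, 1 point per array. The middle and right panels set ILMN_2999329 on the y axis against the mean log2 signal of sperm and testis markers and of oviduct and ciliated cell markers. Fshr-CAM/Lhr-null has the highest mean of ILMN_2999329, with sperm and testis means of 4.79 to 5.45, while Lhr-null replicate 2 combines a Serpina5 signal of 13.47 with the highest sperm and testis mean, 9.92.

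Markers of other tissues moved with some of these genotypes. The mean log2 signal of 6 sperm and testis genes was 5.97 to 9.92 in Lhr-null, 4.79 to 5.45 in Fshr-CAM/Lhr-null and 4.90 to 5.79 in wild type ovaries. Odf1, Smcp and Tnp2, sperm genes, were not detected on any Fshr-CAM/Lhr-null or wild type array. Of the same 6 genes, 1 was detected on every Fshr-CAM/Lhr-null array and 1 on every wild type array. The mean of 8 oviduct and ciliated cell genes was 7.49 to 9.20 in Lhr-null, 5.06 to 6.03 in Fshr-CAM/Lhr-null and 5.02 to 5.21 in wild type ovaries. Of these 8 genes, 6 rose in Lhr-null and 0 passed in Fshr-CAM/Lhr-null against wild type ovaries, where 4.85% and 4.08% of all genes rose. Of the 8, 7 were detected on every Lhr-null array, 2 on every Fshr-CAM/Lhr-null array and 2 on every wild type array. Lhr-null replicate 2, highest in sperm genes, was the highest Lhr-null array of ILMN_2999329 and the lowest of ILMN_1238098. The oviduct and ciliated cell mean was 7.49, 7.63 and 9.20 in Lhr-null replicates 2, 3 and 4. Their ILMN_2999329 signals were 13.47, 12.64 and 12.06. The part of these tissues in the Lhr-null values of Serpina5 was not tested.

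Serpinf1 was bright on ILMN_2639239. It had log2 signals of 11.74, 11.86, 12.30 and 12.15 in Fshr-CAM, 12.41, 12.49 and 12.76 in Lhr-null, 12.29, 12.39, 12.49, 12.79 and 12.20 in Fshr-CAM/Lhr-null, and 12.27, 11.98, 12.15 and 12.05 in wild type ovaries. All Lhr-null arrays lay above all wild type arrays and above all Fshr-CAM arrays. The means ran from Lhr-null (12.55 ± 0.18, SD, n = 3) through Fshr-CAM/Lhr-null (12.43 ± 0.23, n = 5) and wild type (12.11 ± 0.13, n = 4) to Fshr-CAM (12.01 ± 0.26, n = 4), and neighbours overlapped.

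No Serpinf1 difference passed. It was 0.44 ± 0.15 (SE) in Lhr-null against wild type ovaries (limma adjusted p = 0.0743), and passed without Fshr-CAM/Lhr-null replicate 4 (limma adjusted p = 0.0461). In Fshr-CAM/Lhr-null ovaries it was 0.42 ± 0.13 against Fshr-CAM (limma adjusted p = 0.138) and 0.32 ± 0.13 against wild type (limma adjusted p = 0.158). The dim Serpinf1 probe, ILMN_1257789, was detected on all 16 arrays at 5.48 to 6.05. Its differences from wild type were −0.20 in Lhr-null and −0.09 in Fshr-CAM/Lhr-null ovaries, opposite in sign to those of the bright probe and not past the threshold (limma adjusted p = 0.47 and 0.775).

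Read by comparison, 0 of the 8 kept member probes passed in Fshr-CAM against wild type ovaries, where 0.13% of all kept probes were called, and 1 had an unadjusted p under 0.05 (5.39% of all probes). Ranges did not overlap for 1 of the 8, against 3.17% of all probes. In both cases this was the dim Plat probe, ILMN_3003008, which would not have been kept without its wild type detections. In Lhr-null against wild type ovaries 2 of 8 passed, against 9.57% of all probes, and 6 had an unadjusted p under 0.05 (25.5% of all probes). Non-overlapping ranges were seen there for 4 of 8 member probes and for 22% of all probes. In Fshr-CAM/Lhr-null against wild type ovaries 2 of 8 passed, against 7.9% of all probes, and 4 had an unadjusted p under 0.05 (22.8% of all probes). Ranges there did not overlap for 2, against 12.5%. With 8 probes from 5 genes, counts of this size are descriptions with no test against other probes.

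Between the mutants, 0 of 8 passed in Fshr-CAM/Lhr-null against Lhr-null ovaries (0.563% of all probes called) and 0 of 8 in Fshr-CAM/Lhr-null against Fshr-CAM ovaries (1.62%). At an unadjusted p under 0.05 there was 1 against Lhr-null (12.6% of all probes) and there were 3 against Fshr-CAM (16%). Non-overlapping ranges were seen for 0 of 8 (7.88% of all probes) and 1 of 8 (6.47%). For the interaction 0 of 8 passed, against 0.156% of all probes, and 0 had an unadjusted p under 0.05 (6.88% of all probes). The comparisons against wild type share the same 4 wild type arrays, so their values are not independent. The median change of the 8 probes was 0.12 in Lhr-null and 0.01 in Fshr-CAM/Lhr-null against wild type ovaries, beside −0.03 and 0.03 for all kept probes.

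**Figure D3:**
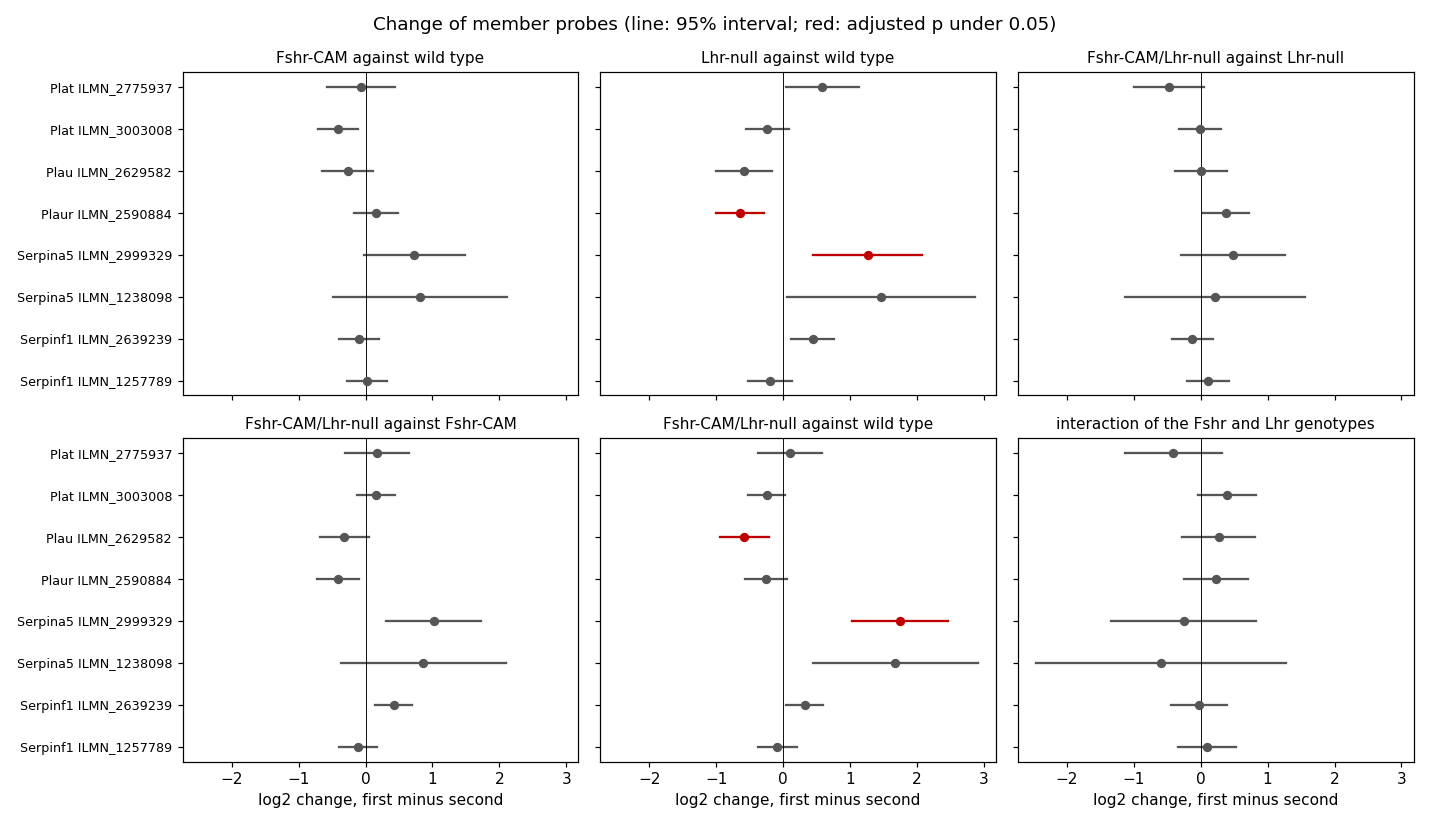
Each panel is 1 comparison, with the log2 change of each kept member probe on the x axis, as the first group minus the second, and its 95% interval as a line. Red marks a limma adjusted p under 0.05: Plaur and Serpina5 ILMN_2999329 in Lhr-null and Plau and Serpina5 ILMN_2999329 in Fshr-CAM/Lhr-null ovaries, both against wild type.

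Markers of the ovary's own cell types were read from lists of genes. Fewer cells of a type and less RNA per cell cannot be told apart in these bulk samples. Beside the counts below, 0.173% of all 12137 genes rose and 0.0247% fell in Fshr-CAM against wild type ovaries. These shares were 4.85% and 6.37% in Lhr-null and 4.08% and 5.29% in Fshr-CAM/Lhr-null ovaries, each gene by its brightest kept probe. The mean log2 signal of 6 corpus luteum genes was 9.28 to 10.44 in Fshr-CAM, 6.45 to 7.01 in Lhr-null, 6.69 to 7.34 in Fshr-CAM/Lhr-null and 9.80 to 11.14 in wild type ovaries. All 6 fell in Lhr-null and in Fshr-CAM/Lhr-null against wild type ovaries, and 0 of 6 passed in Fshr-CAM. Ptgfr, the luteal prostaglandin receptor, was not detected on any Lhr-null or Fshr-CAM/Lhr-null array. Granulosa cell markers (9 genes) averaged 10.68 to 11.05 in Fshr-CAM, 10.37 to 10.94 in Lhr-null, 10.93 to 11.04 in Fshr-CAM/Lhr-null and 9.60 to 10.35 in wild type ovaries. Against wild type, 3 of 9 rose in Fshr-CAM, 5 in Lhr-null and 5 in Fshr-CAM/Lhr-null ovaries. The 9 genes include Fshr, the mutated gene, which is among those counted in Fshr-CAM and in Fshr-CAM/Lhr-null ovaries. Its brightest probe rose by 2.73 and 2.37 there, so Fshr also lifts the list mean in both genotypes.

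Theca and interstitial cell markers (8 genes) averaged 8.35 to 8.92 in Fshr-CAM, 8.75 to 9.15 in Lhr-null, 8.95 to 9.46 in Fshr-CAM/Lhr-null and 8.51 to 8.93 in wild type ovaries. Of the 7 kept, 0 passed in Fshr-CAM, 2 rose in Lhr-null and 3 rose in Fshr-CAM/Lhr-null ovaries, where the list mean did not overlap with wild type. Smooth muscle markers (6 genes) averaged 8.87 to 9.54 in Fshr-CAM, 8.93 to 9.38 in Lhr-null, 9.19 to 9.73 in Fshr-CAM/Lhr-null and 8.75 to 9.10 in wild type ovaries, and 2 of 5 kept genes rose in Fshr-CAM/Lhr-null ovaries. Adipocyte markers (6 genes) averaged 5.01 to 5.41 in Fshr-CAM, 5.69 to 6.15 in Lhr-null, 4.77 to 5.53 in Fshr-CAM/Lhr-null and 4.74 to 5.36 in wild type ovaries. Of 4 kept adipocyte genes 3 rose in Lhr-null ovaries, while Fabp4, a defining adipocyte gene, was not detected on any of the 16 arrays.

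Endothelial markers (9 genes, all detected on every array) averaged 8.04 to 8.83 in Fshr-CAM, 7.47 to 7.86 in Lhr-null, 7.74 to 8.23 in Fshr-CAM/Lhr-null and 8.09 to 8.57 in wild type ovaries. Of these, 5 fell in Lhr-null and 1 fell in Fshr-CAM/Lhr-null ovaries, beside 6.37% and 5.29% of all genes. Macrophage markers (9 genes) averaged 8.24 to 8.85 in Fshr-CAM, 7.73 to 8.16 in Lhr-null, 7.65 to 8.36 in Fshr-CAM/Lhr-null and 7.92 to 8.74 in wild type ovaries, and every mutant overlapped with wild type. Of these, 0 of 9 passed in any of the 6 comparisons. At an unadjusted p under 0.05 there were 0 to 3, beside 5.39% to 25.5% of all kept probes. Oocyte markers (10 genes) averaged 7.42 to 9.10 in Fshr-CAM and 9.30 to 9.51 in Lhr-null ovaries. They averaged 8.76 to 9.66 in Fshr-CAM/Lhr-null and 8.40 to 9.05 in wild type ovaries. Against wild type, 1 of 9 kept oocyte genes rose in Lhr-null, beside 4.85% of all genes, and 0 passed in the other mutants. Surface epithelium markers (8 genes) averaged 6.87 to 8.39 in Lhr-null and 6.93 to 7.40 in wild type ovaries, and 0 of 8 passed in any comparison. The part of these cell types in the values of Plat, Plau, Plaur, Serpina5 and Serpinf1 was not tested.

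The other genes of the plasminogen system were read from a list of 40 names, of which 35 were on the array and 23 had a kept probe, each gene taken by its brightest. Plg, the substrate of the activators, was not detected on any of the 16 arrays, nor were Serpinb2 and Serpinf2, inhibitors of the activators and of plasmin. Of the 23 genes, 3 rose and 3 fell in Lhr-null against wild type ovaries, where 4.85% of all 12137 genes rose and 6.37% fell. In Fshr-CAM/Lhr-null against wild type ovaries 1 rose and 2 fell, where 4.08% of genes rose and 5.29% fell. In the other 4 comparisons 0 of the 23 passed, where 0% to 1.63% of all genes passed in a given direction. An unadjusted p under 0.05 was seen there for 1 to 3 genes, beside 5.39% to 16% of all kept probes. Against wild type it was seen for 11 in Lhr-null and 8 in Fshr-CAM/Lhr-null ovaries, beside 25.5% and 22.8% of all kept probes. The list's median change was −0.05 in Lhr-null and 0.12 in Fshr-CAM/Lhr-null ovaries, beside 0.00 and 0.04 over all genes.

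Vtn, which encodes vitronectin, a matrix protein that binds the urokinase receptor, had the largest change of the list. It averaged 6.98 ± 0.56 in Lhr-null and 4.70 ± 0.23 in wild type ovaries (SD, n = 3 and 4), a difference of 2.28 ± 0.34 (SE, limma adjusted p = 0.000669). It was detected on 3 of 3 Lhr-null and on 1 of 4 wild type arrays, so the size depends on the background. In Fshr-CAM/Lhr-null ovaries Vtn averaged 5.51 ± 0.57 (SD, n = 5) and was detected on all 5 arrays. The difference of that genotype from Lhr-null was −1.47 ± 0.32 (SE), with no overlap, and did not pass (limma adjusted p = 0.0564). The part of oviduct and other tissues in the Vtn values was not tested. Vldlr, a receptor that takes up activator and inhibitor complexes, rose by 0.71 ± 0.16 in Lhr-null and by 0.56 ± 0.14 in Fshr-CAM/Lhr-null ovaries (limma adjusted p = 0.00977 and 0.0191). With median-centred signals in place of background correction and quantiles, these were 0.47 and 0.33 and did not pass (limma adjusted p = 0.193 and 0.339). In Fshr-CAM/Lhr-null ovaries Vldlr also missed the threshold without wild type replicate 1 or 3 (limma adjusted p = 0.0566 and 0.0525).

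Hgfac, a protease that activates hepatocyte growth factor, fell by 0.89 ± 0.22 (SE) on the log2 scale in Lhr-null and by 0.87 ± 0.19 in Fshr-CAM/Lhr-null ovaries (limma adjusted p = 0.019 and 0.0118). Its Lhr-null change was −0.57 without Lhr-null replicate 2 and −0.85 without wild type replicate 2, and passed in neither (limma adjusted p = 0.0791 and 0.0564). F2r, a thrombin receptor, fell by 0.84 ± 0.23 in Lhr-null ovaries (limma adjusted p = 0.0305). That call was lost without Lhr-null replicate 2 or 3 or wild type replicate 2 or 4 (limma adjusted p = 0.0657 to 0.108). Anxa2, a cell surface receptor for plasminogen and the tissue-type activator, averaged 12.67 ± 0.10 in Fshr-CAM/Lhr-null and 13.30 ± 0.39 in wild type ovaries (SD, n = 5 and 4). It fell by 0.63 ± 0.14 (limma adjusted p = 0.0121).

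The remaining list calls in Lhr-null ovaries were named after their values were seen. Itgav, an integrin subunit that binds vitronectin, rose by 0.67 ± 0.20 (SE, limma adjusted p = 0.0466), a call lost without any 1 of 11 arrays (limma adjusted p = 0.0516 to 0.126). Anxa2 fell there by 0.59 ± 0.16 (limma adjusted p = 0.0297), with overlapping ranges, and missed the threshold without Lhr-null replicate 2 or 3, or wild type replicate 2 or 4 (limma adjusted p = 0.0726 to 0.0943).

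Of 38 other serpin genes, 34 were on the array and 12 were kept. Of these 12, 1 passed in Fshr-CAM/Lhr-null against wild type ovaries, where 5.29% of all genes fell. In the other 5 comparisons 0 of 12 passed, where 0% to 6.37% of all genes passed in a given direction. There 0 to 1 had an unadjusted p under 0.05, beside 5.39% to 25.5% of all kept probes. Serpinb6a, an intracellular serpin named after its value was seen, fell by 0.45 ± 0.10 (SE) in Fshr-CAM/Lhr-null against wild type ovaries, with overlapping ranges (limma adjusted p = 0.013). It missed the threshold without wild type replicate 2 (limma adjusted p = 0.054).

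**Figure D4:**
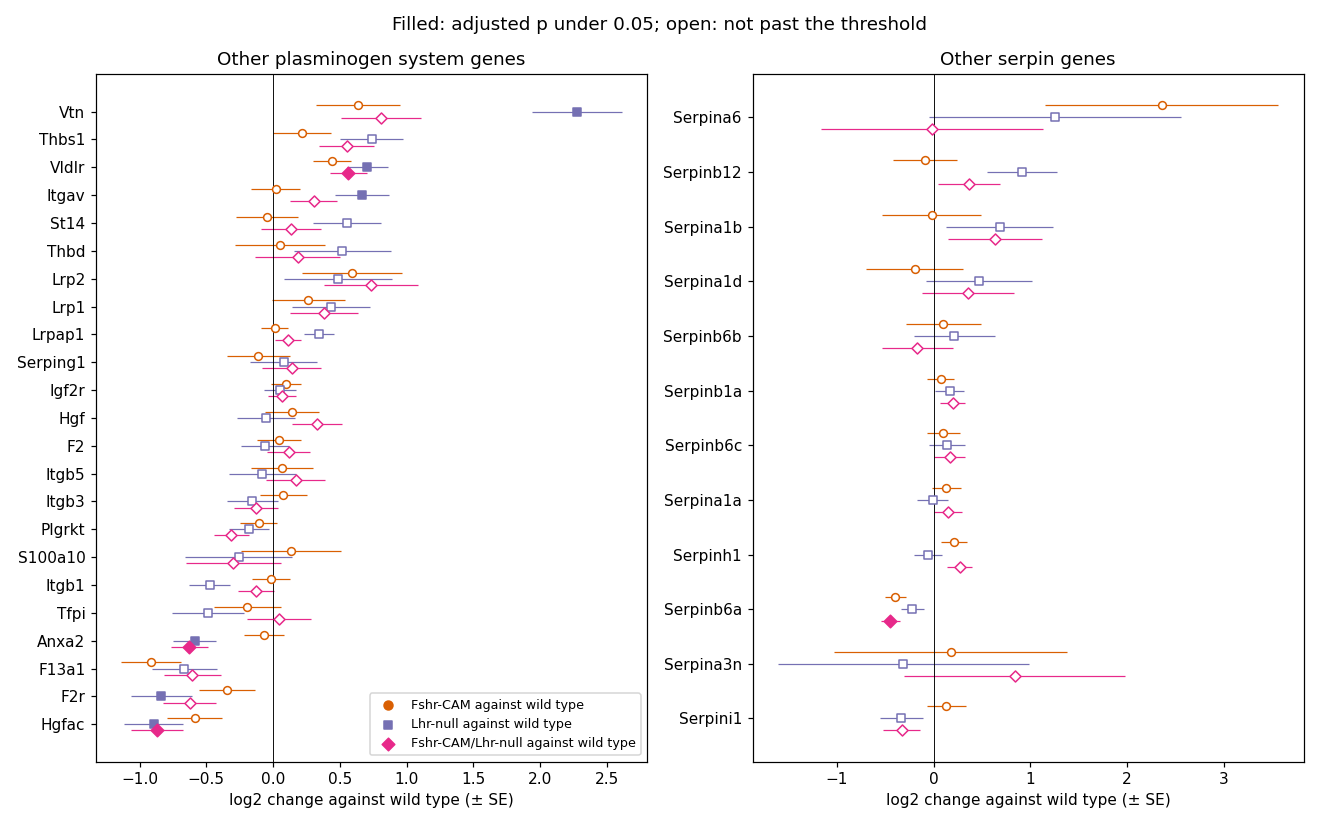
Log2 change against wild type ± SE on the x axis for 23 other genes of the plasminogen system (left) and 12 other serpin genes (right), with 1 symbol per genotype, filled where the limma adjusted p was under 0.05. Vtn in Lhr-null ovaries stands farthest to the right of the left panel, at 2.28.

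The patterns most like each member were found by Pearson's r with 12136 other genes over the 16 arrays, by the brightest probe of each gene. The arrays share genotype, so r also holds the differences between genotypes, and these values are descriptions. Plaur was most like Fosl2 (r = 0.90), which encodes a subunit of AP-1, Fez2 (0.89) and Slc12a9 (0.89). Serpina5 was most like Itpkb (0.89), Gorasp1 (0.88) and Bpifb5 (0.88). Serpinf1 was most like Rap2b (0.93), Shroom1 (0.93) and Hdac11 (0.92). Plat was most like Ttc8 (0.89), Kdm6a (0.87) and Meis2 (0.86), and Plau most like Coa8 (0.83), Skil (0.81) and Nme1 (0.79). After each genotype's mean was subtracted, the first-ranked partners had r of 0.85 for Plat, 0.62 for Plau, 0.70 for Plaur, 0.78 for Serpina5 and 0.86 for Serpinf1.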

How the data were processed

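Total RNA of 17 samples labelled as ovary was hybridised as biotin-labelled cRNA. The authors used GenomeStudio 1.7.0, as the submitters' processing notes list. One deposited table holds, per the file headers, the average intensity (signal) not background-subtracted, a detection p-value, and the number of beads and their standard error for each of 45281 probes. A second deposited table holds the authors' quantile-normalised intensity. Detected probes numbered 19366 to 22006 per array, with median signals of 56.7 to 74.4 and medians of 41 to 43 beads. No dates or slides were used. Of all probes, 34885 had 1 gene symbol in the platform annotation, 18 several and 10378 none.

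Signals were background-corrected with the detection p-values, offset by 16, quantile-normalised and log2-transformed on 16 arrays by the neqc function (R 4.3.3, limma 3.58.1). Leaving out Lhr-null replicate 1, the genes, lists and tests were chosen with earlier results of these data known. One mean per genotype was fitted with lmFit and eBayes with an intensity trend. P-values were adjusted by Benjamini-Hochberg. Replicate numbers were not used to pair the arrays in the main fit. All member probes are named; each comparison names up to 4 list genes past the threshold with the largest change and no overlap, and each member the 3 genes most like it. The number of arrays limits the precision. Alternatives are given in the closing section. Promoters are from RefSeq (GRCm38.p6). Python 3.11.15 with pandas 2.3.3 and matplotlib 3.10.9 drew the figures.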

Additional observations from a re-analysis of the deposited data

Results flagged for a closer look

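On the dimmer Serpina5 probe, ILMN_1238098, Fshr-CAM replicate 2 stood at 5.35, far below the other 3 Fshr-CAM arrays at 7.90 to 8.04. On the brighter probe the same array was the lowest Fshr-CAM array, at 11.92. Without it, the change of ILMN_1238098 in Fshr-CAM/Lhr-null against wild type ovaries passed the threshold (limma adjusted p = 0.0372).

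On Serpinf1 ILMN_2639239, the left-out array labelled Lhr-null replicate 1 stood at 9.36, while Lhr-null replicates 2 to 4 stood at 12.39 to 12.74, when all 17 arrays were normalised together. Far arrays were seen in 2 of 32 groups of 4 or 5 arrays, or 1 of 24 without the Lhr-null groups, where chance gives about 1 in 20.

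Plat was above its wild type range on that left-out array. ILMN_2775937 stood at 9.79 there and at most at 9.48 in wild type ovaries. On the same array Plau stood at 6.08 and Serpina5 at 6.14 and 4.42, below all other arrays of the same probes.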

How the results depend on the processing

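The 48 member changes were recomputed under 1180 combinations of setting and comparison, of which 1124 counted as the same. These kept their side of the threshold, and either kept direction or changed sign by a shift smaller than the main SE. Most of the 48 had not passed in the main fit, so the same mostly means still not past the threshold. Of the changes called in Lhr-null ovaries, Plaur was the same in 18 of 25 settings and Serpina5 ILMN_2999329 in 6 of 26. In Fshr-CAM/Lhr-null ovaries Plau was the same in 11 of 26 and Serpina5 ILMN_2999329 in 25 of 26. With all 17 arrays Serpina5 ILMN_2999329 turned to −0.38 in Lhr-null against wild type ovaries (limma adjusted p = 0.897). There the count of called member probes, 2, went to 1 with all 17 arrays, the authors' quantile-normalised values, median-centred signals, the stricter filter, array quality weights, or 14 arrays (also without Lhr-null replicate 2 and Fshr-CAM/Lhr-null replicate 4, chosen after seeing the data), and to 0 with no detection filter or only the arrays compared. Leaving out single arrays gave 0 to 3, and the count fell below 2 in 23 of all 26 settings. For Fshr-CAM/Lhr-null against wild type ovaries, 2 went to 0 with all 17 arrays and to 1 with no filter, only the arrays compared or the 14 arrays. Single arrays gave 1 to 2 there, and the count fell below 2 in 14 of all 26 settings. Serpina5 ILMN_2999329 missed the threshold there with all 17 arrays alone (1.74, limma adjusted p = 0.465). Against Fshr-CAM, 0 became 1, Serpina5, with array quality weights or only the arrays compared. The other comparisons stayed at 0 called. With all 17 arrays Fshr ILMN_1228881 missed the threshold in both Fshr-CAM genotypes against wild type (limma adjusted p = 1 and 0.151).

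Deviations of same-numbered arrays from their genotype means correlated at −0.48 to 0.33 (median 0.04, 21 pairs). Those of differently numbered arrays correlated at −0.45 to 0.50 (median −0.01, 74 pairs). With so few arrays per genotype, these values cannot settle whether same-numbered arrays were paired. With the replicate number as a block, 2 member probes were again called in Lhr-null against wild type ovaries, but Plau was gained (−0.67, limma adjusted p = 0.0149) and Plaur lost (limma adjusted p = 0.0723), and 2 were called in Fshr-CAM/Lhr-null against wild type ovaries. The 12 list and Fshr changes kept their direction in all 312 refits and missed the threshold in 49. A slide block was not run because the files name no slide. The interaction uses all groups and has no fit with only the arrays compared. Signal over background limits Plaur and the dim Plat probe. The causes of the changes with setting were not tested.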
